A study of Homo sapiens with 15 samples.

Results

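The response of A549 cells to interleukin-4 (IL4) was examined while the gene ALOX15 was knocked down. A549 is a human lung cancer line of epithelial origin (adenocarcinoma). The 3 libraries of cells given IL4 at 10 ng/ml together with a pooled siRNA against ALOX15 at 1 uM were compared with the 3 libraries of untreated cells, 6 of the 15 libraries in the series. The same siRNA libraries were also set against 3 libraries of cells given IL4 and a control siRNA, and 3 libraries with IL4 alone were used for values side by side. The other 3 libraries, treated with IL4 and a substance named only Compound A, entered the shared estimate of the spread. The labels give 48 h for the treatments and state no dose for the control siRNA. No group received an siRNA without IL4, so in the comparison with untreated cells the effects of IL4, of siRNA transfection and of ALOX15 knockdown cannot be told apart. Whether the untransfected cells went through a mock transfection is not stated in the labels. Separate cultures are not stated for the replicates either, so p-values here reflect only the spread among libraries, and that spread may be technical.

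IL4 acts through the receptor subunits IL4R and IL13RA1 on epithelial cells, which activate Janus kinases and the transcription factor STAT6. In airway epithelium this pathway is known for inducing eotaxins, mucus-related genes and ALOX15. The product of ALOX15, arachidonate 15-lipoxygenase, inserts oxygen into polyunsaturated fatty acids, both free and in membrane lipids.

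Counts per library summed to 7442934, 6455431 and 7762937 with IL4 and ALOX15 siRNA (replicates 1, 2 and 3) and to 11031246, 9083233 and 6694576 in untreated cells. Levels are given as counts per 1e6 counts (CPM) with the SD over 3 libraries, and they are not corrected for gene length. A gene passed where the adjusted p of edgeR's quasi-likelihood test was under 0.05. The epithelial markers EPCAM, KRT8, KRT18, KRT19 and CDH1 summed to 8267 to 8844 CPM with IL4 and ALOX15 siRNA and to 5173 to 5854 CPM in untreated cells. Most of the sum came from KRT8 (means of 4434 and 2843 CPM) and KRT18 (3925 and 2363 CPM). EPCAM was low and went the other way (6.52 and 13.9 CPM). The labels call the line alveolar type II like, but 7 of 9 alveolar type II markers were under 1 CPM in both groups and the surfactant gene SFTPB was at 0 in both. The other 2 were ABCA3, a lipid transporter of surfactant storage, which rose (70.2 ± 0.551 CPM with IL4 and ALOX15 siRNA, 37.0 ± 1.06 CPM in untreated cells, SD, n = 3 each), and LAMP3, which did not pass. Of 5 leukocyte markers, PTPRC and CD3E were at 0 in both groups, and of 4 endothelial markers CDH5 and KDR were at 0. Fibroblast markers summed to 17.8 to 20.8 CPM with IL4 and ALOX15 siRNA and to 8.596 to 10.9 CPM in untreated cells, and the defining collagen gene COL1A2 was at 0 in both. Of 3 muscle markers only ACTA2 had enough counts to be tested, and it did not pass (log2 0.08). On the first principal component of log2 CPM (30.4% of the variance), the untreated libraries lay at 35.3 to 36.5 and the ALOX15 siRNA libraries at -13.4 to -12.7. One library of the IL4 group, replicate 1, stood apart from its group mates, at 34.4 on the second component.

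ALOX15 itself (ENSG00000161905.12, GRCh38 chr17:4630902-4642294, minus strand) was measured in every library. With IL4 and ALOX15 siRNA it stood at 0.136, 0.314 and 0.259 CPM, with IL4 and control siRNA at 3.91, 3.56 and 3.28 CPM, and in untreated cells at 0, 0.110 and 0.299 CPM. The ALOX15 siRNA libraries were thus below every control siRNA library and overlapped the untreated ones. Against control siRNA it fell 14.4-fold (log2 -3.85, SE 0.43, adjusted p = 8.5e-05). Against untreated cells the log2 difference was 0.96 (SE 0.82, adjusted p = 0.49), and it did not pass. The ALOX15 siRNA libraries together held 5 counts and the untreated libraries 3, a ratio of 2.09 with an exact 95% interval of 0.407 to 13.5 that covers counting error only. At this depth a difference of that size was not detectable. RSEM gave fractional ALOX15 counts in 2 libraries, as it can where a read fits more than 1 gene. In such bulk libraries, fewer cells carrying a transcript and less transcript per cell cannot be told apart.

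**Figure D1:**
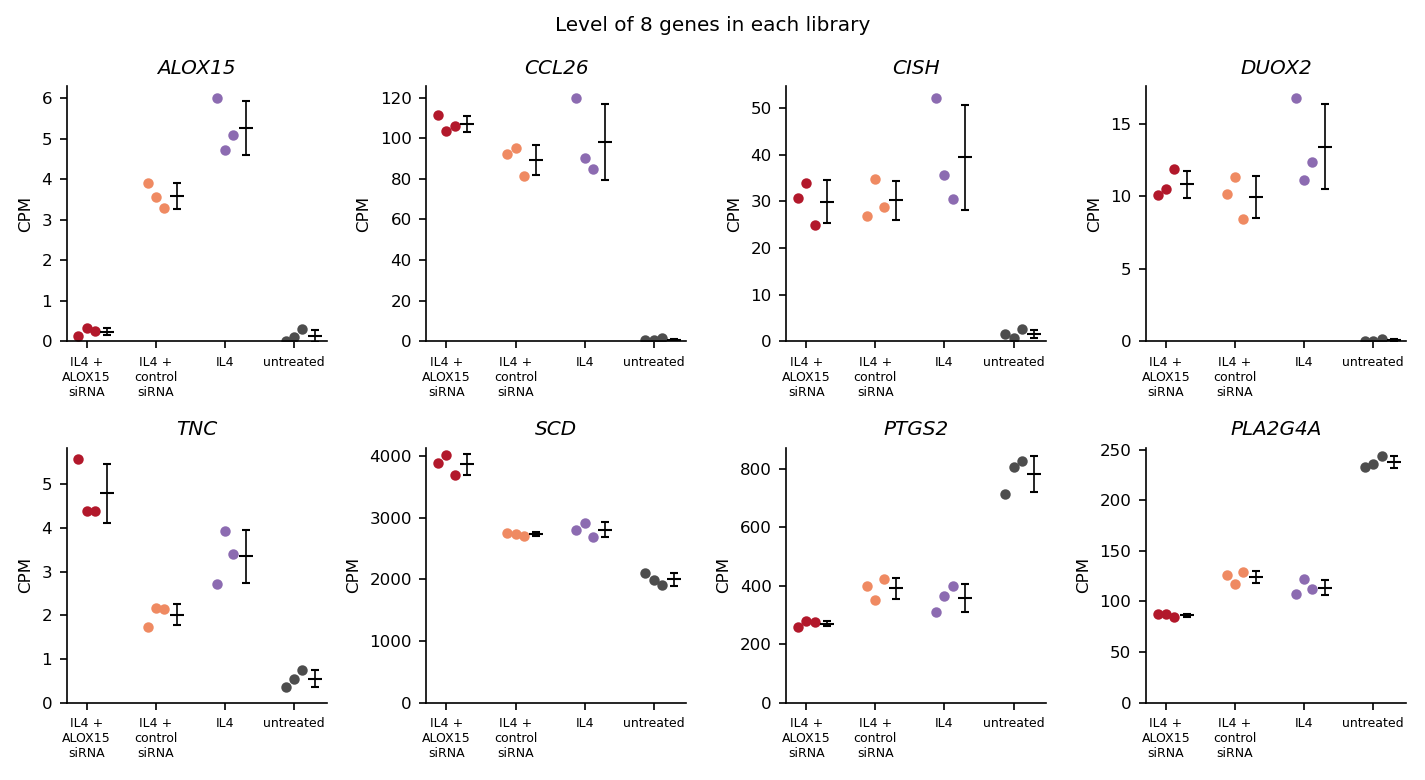
Level of 8 genes in every library, in CPM on linear axes that start at 0. Points are libraries, and bars beside them give the mean and SD of 3. ALOX15 is near 0 with ALOX15 siRNA and in untreated cells, CCL26, CISH and DUOX2 are high in all 9 IL4 libraries shown, and PTGS2 and PLA2G4A are lowest with ALOX15 siRNA.

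The response to IL4 with ALOX15 siRNA was broad. Of 12795 genes tested, 1605 were higher than in untreated cells (12.5%) and 1608 were lower (12.6%), 25.1% in all. In a test against a 2-fold change, 122 were higher and 27 lower. The median log2 change over all genes tested was -0.02. The shares of 12.5% and 12.6% are the background for the counts of every list below.

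The eotaxin genes CCL26 and CCL24, DUOX2 and ITLN1 were among the 12 highest rises. CCL26 (ENSG00000006606.8, chr7:75769533-75789896), which encodes eotaxin-3, had 112, 104 and 106 CPM with IL4 and ALOX15 siRNA, against 0.627, 0.551 and 1.34 CPM in untreated cells. It rose 134-fold (log2 7.07, SE 0.20, adjusted p = 1.5e-15), and all 3 treated libraries lay far above the untreated ones. CCL24, which encodes eotaxin-2, had 2.04, 2.83 and 2.07 CPM with IL4 and ALOX15 siRNA, against 0, 0.110 and 0.149 CPM in untreated cells. Its 49 treated and 2 untreated counts give a ratio of 30.8 (95% counting interval 8.07 to 261). DUOX2, a dual oxidase that makes hydrogen peroxide at epithelial surfaces, had 10.1, 10.5 and 11.9 CPM with IL4 and ALOX15 siRNA, against 0, 0 and 0.149 CPM in untreated cells, a ratio of 292 (52.0 to 11602). Its RSEM counts were fractional in 4 libraries. ITLN1, a lectin that goblet cells secrete, had 4.90, 4.24 and 4.65 CPM with IL4 and ALOX15 siRNA, against 0, 0.110 and 0 CPM in untreated cells, a ratio of 124 (21.8 to 4958). The secreted cystatin CST1, which has close paralogs, stood at 214 ± 10.4 CPM with IL4 and ALOX15 siRNA and at 39.0 ± 2.26 CPM in untreated cells (SD, n = 3 each).

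In the list of type 2 effector genes and epithelial IL-4/IL-13 targets, 16 of 43 genes had enough counts to be tested. Of these, 9 rose and 3 fell, with a median log2 change of 1.64. Besides those above, PIGR, the transporter of polymeric immunoglobulins (log2 3.92), TGM2, a transglutaminase (2.04), VDR, the vitamin D receptor (1.97), and DPP4, a cell surface peptidase (1.32), rose. The 3 that fell were the goblet cell transcription factors FOXA3 (-1.71) and SPDEF (-1.04) and the mucus protein gene FCGBP (-0.62). MUC5AC, the gel-forming mucin of airway goblet cells, had 397, 362 and 414 CPM with IL4 and ALOX15 siRNA, against 469, 481 and 406 CPM in untreated cells, and did not pass (log2 -0.21, SE 0.16, adjusted p = 0.38).

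In the signalling chain of the IL-4 receptor, more genes rose than fell. CISH, an inhibitor of cytokine receptor signalling, had 30.8, 33.9 and 24.9 CPM with IL4 and ALOX15 siRNA, against 1.52, 0.771 and 2.54 CPM in untreated cells, and rose 19.3-fold (log2 4.27, SE 0.29). Of 21 tested genes for the IL-4 receptor, JAK and STAT proteins, 11 rose and 2 fell (median log2 change 0.24), and 1 fell without ALOX15 siRNA replicate 2 or 3 or without untreated replicate 1 or 2. The kinase gene JAK2 (0.85) and the feedback inhibitor SOCS2 (0.77) were among those that rose, as was STAT5A (0.89), whose counts were not whole in 14 libraries and whose call was lost in 1 of 6 fits that left out 1 library. IRS2, an adaptor of the IL-4 receptor, fell 2.06-fold (log2 -1.04, SE 0.08). IL4R, the ligand-binding chain, had 24.4, 19.8 and 25.6 CPM with IL4 and ALOX15 siRNA and 19.8, 16.8 and 15.5 CPM in untreated cells. It passed narrowly although the libraries overlapped (log2 0.41, adjusted p = 0.033), and the call was lost in 4 of 6 fits that left out 1 library, as that of IL13RA1 (0.19) was in 3. STAT6 did not pass (log2 -0.06, SE 0.07, adjusted p = 0.62). SOCS1 had too few counts to be tested, with 14 counts in treated and 3 in untreated libraries, a ratio of 5.86 (95% counting interval 1.64 to 31.8).

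Binding sites of STAT6 typically read TTC and GAA separated by a 4-base spacer. The promoter of ITLN1 is shown because it was 1 of 2 promoters with such a match among the 8 that could be looked up for the 12 genes with the highest rises. It spans 250 bases before to 50 bases after the RefSeq gene start (GRCh38.p14, chr1:160885131-160885430, minus strand, written 5′ to 3′ on the gene's strand). Capitals mark the match to TTC, any 4 bases and GAA, a motif that reads alike on both strands, which lies 149 to 140 bases before the start.
ITLN1: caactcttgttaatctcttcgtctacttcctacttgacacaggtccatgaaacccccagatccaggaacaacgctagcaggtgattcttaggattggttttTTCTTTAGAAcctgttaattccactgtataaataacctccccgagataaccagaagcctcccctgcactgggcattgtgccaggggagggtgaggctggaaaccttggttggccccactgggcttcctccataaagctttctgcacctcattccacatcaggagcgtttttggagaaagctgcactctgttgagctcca
The other match was in FAM26E. Across RefSeq promoters of the same length, this motif was present in 4.48% of the genes that were higher, in 6.08% of those that were lower and in 4.52% of the 10342 tested genes with a promoter in the table. It was therefore not more frequent among the genes that rose than among all genes tested. A match is a description of the letters and not evidence of binding.

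Other genes among the highest rises had different known roles. KIRREL3, an adhesion protein of the immunoglobulin superfamily, had 25.6, 30.8 and 26.1 CPM with IL4 and ALOX15 siRNA, against 1.25, 0.992 and 0.598 CPM in untreated cells (log2 4.76, SE 0.22). Near-absent in untreated cells were FAM26E, with a ratio of 65.9 (95% counting interval 17.8 to 551), SMPD3, a sphingomyelinase, with 41.4 (6.94 to 1685), and CDH3, which encodes P-cadherin, with 22.6 (7.33 to 113). For the antisense RNA SLC26A4-AS1 the ratio was 117 (20.4 to 4660.2), but without a stated strand setting its reads cannot be told apart from those of its sense partner. KRT16, a keratin of stressed epithelia, had 6.81, 6.60 and 5.95 CPM with IL4 and ALOX15 siRNA, against 0, 0.220 and 0.149 CPM in untreated cells, a ratio of 57.7 (19.4 to 283). It has closely related paralogs, and its counts were whole in all 15 libraries.

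The 12 largest falls among genes that passed, reached 1 CPM and did not overlap were mostly in genes at low levels. CNTNAP2, a neuronal adhesion protein, had 0.817, 0.314 and 1.16 CPM with IL4 and ALOX15 siRNA, against 8.16, 8.04 and 9.12 CPM in untreated cells, and fell 10.5-fold (log2 -3.39, SE 0.33). The plasma protein genes ALB (log2 -2.93) and TF (-2.66), which encode albumin and transferrin, fell together with HGF, a growth factor (-2.45), and ACOX2, a peroxisomal oxidase of bile acid synthesis (-2.36). Others among the 12 were the transcription factor ATOH8 (-2.83), the potassium channel subunit KCNJ11 (-2.74), the small GTPase RASD1 (-2.73), the Wnt regulator DACT2 (-2.73), the hormone-sensitive lipase LIPE (-2.63), the ephrin receptor EPHB3 (-2.54) and C9orf152 (-2.82). In each of these 12 genes the 3 treated libraries lay below the 3 untreated ones, which the rule for naming them required.

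**Figure D2:**
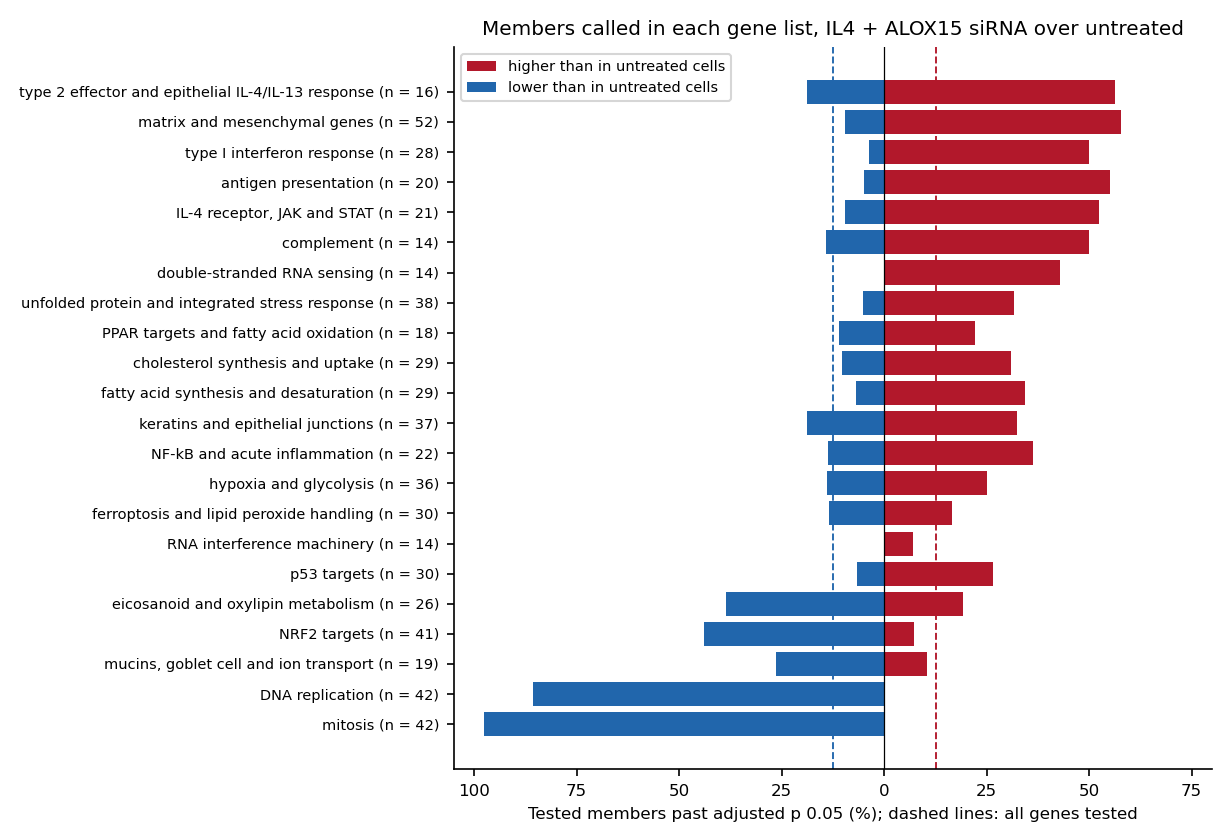
Share of tested members of 22 gene lists that passed, in percent, higher to the right and lower to the left of 0. The dashed lines give the share over all genes tested, 12.5% higher and 12.6% lower. Matrix and type 2 effector genes extend farthest to the right, and mitosis and DNA replication genes reach 97.6% and 85.7% to the left.

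Eicosanoid genes changed in both directions. PTGS2, the inducible cyclooxygenase, had 259.5, 278 and 275 CPM with IL4 and ALOX15 siRNA, 400.1, 350.3 and 422 CPM with IL4 and control siRNA, and 712, 806 and 828 CPM in untreated cells. It fell 2.89-fold against untreated cells (log2 -1.53, SE 0.08, adjusted p = 3.3e-11) and 1.44-fold against control siRNA (log2 -0.53, SE 0.08, adjusted p = 0.0033), with no overlap between the groups. PLA2G4A, the cytosolic phospholipase that releases arachidonic acid, had 87.4, 87.5 and 84.9 CPM with IL4 and ALOX15 siRNA, 126, 117 and 129 CPM with IL4 and control siRNA, and 233, 236 and 244 CPM in untreated cells. It likewise fell in both comparisons (log2 -1.46 against untreated cells, log2 -0.52 and adjusted p = 0.00087 against control siRNA). ALOX5, the 5-lipoxygenase of leukotriene synthesis, rose 2.7-fold (2.04, 2.20 and 2.20 CPM with IL4 and ALOX15 siRNA, against 0.538, 1.10 and 0.747 CPM in untreated cells, adjusted p = 0.0023). Of 26 tested genes of eicosanoid and oxylipin metabolism, 5 rose and 10 fell (median log2 change -0.14), and only 6 fell without ALOX15 siRNA replicate 3. The other 4 that rose were PLA2G4C, another phospholipase (1.18, a call lost in 1 of 6 fits that left out 1 library), AKR1B1, an aldose reductase with prostaglandin synthase activity (0.99), HPGD, which inactivates prostaglandins (0.71), and MGLL, which hydrolyses monoacylglycerols (0.58).

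Genes for desaturation and sterol sensing rose in part. SCD, the stearoyl-CoA desaturase that makes monounsaturated fatty acids, had 3884, 4020.2 and 3689 CPM with IL4 and ALOX15 siRNA, 2759, 2734 and 2697 CPM with IL4 and control siRNA, and 2105, 1985 and 1906 CPM in untreated cells. The 3 groups did not overlap, and SCD rose 1.93-fold against untreated cells (log2 0.95, SE 0.06, adjusted p = 2.3e-10) and 1.42-fold against control siRNA (log2 0.50, SE 0.06, adjusted p = 0.00018). INSIG1, a sterol-regulated protein that retains SREBP precursors in the endoplasmic reticulum, had 77.7, 91.7 and 77.6 CPM with IL4 and ALOX15 siRNA, 55.4, 57.5 and 55.5 CPM with IL4 and control siRNA, and 38.7, 32.4 and 33.5 CPM in untreated cells. It too rose in both comparisons (log2 1.23 against untreated cells, log2 0.55 and adjusted p = 0.0024 against control siRNA). Of 29 tested fatty acid synthesis and desaturation genes, 10 rose and 2 fell (median 0.10), and 1 fell without replicate 1 of either group and none by edgeR's test without ALOX15 siRNA replicate 2 or 3 or untreated replicate 2. FADS3, a desaturase family member, rose by a log2 change of 0.99, while fatty acid synthase, FASN, had 0.13 and did not pass. The 2 that fell, ACSL5, an acyl-CoA synthetase, and DGAT2, which makes triglycerides, lost their calls in 3 and 5 of 6 fits that left out 1 library. Of 29 cholesterol genes, 9 rose and 3 fell (median 0.10). The sterol transporter STARD4 (0.69) and HMGCS1, which acts early in the pathway (0.43), rose. In the list of PPAR targets and fatty acid oxidation, 4 of 18 genes rose and 2 fell (median 0.11). In that list 1 fell without any 1 ALOX15 siRNA library or without untreated replicate 2 or 3, and 4 fell without IL4 replicate 1. The nuclear receptor PPARG (0.44) and the lipid droplet coat protein PLIN2 (0.57) rose, and PDK4, a kinase that restrains pyruvate use, fell 3.44-fold (log2 -1.78, SE 0.08). PPARGC1A, the other that fell, kept its call in only 1 of 6 fits that left out 1 library.

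Matrix genes rose in larger numbers than they fell. Of 52 tested matrix and mesenchymal genes, 30 rose and 5 fell, with a median log2 change of 0.64. TNC (chr9:115019578-115118257), the matrix glycoprotein tenascin-C, had 5.58, 4.399 and 4.39 CPM with IL4 and ALOX15 siRNA, 1.74, 2.17 and 2.14 CPM with IL4 and control siRNA, and 0.359, 0.551 and 0.747 CPM in untreated cells. It rose 8.93-fold against untreated cells (log2 3.16, SE 0.32, adjusted p = 1.7e-07). Several collagens rose, and the fibrillar collagen COL5A1 had 101, 96.9 and 89.6 CPM with IL4 and ALOX15 siRNA, against 13.2, 14.9 and 15.7 CPM in untreated cells (log2 2.73, SE 0.11). The anchoring collagen COL7A1 (2.29), COL6A2 (1.68), COL6A1 (1.62), COL1A1 (1.24) and the basement membrane collagens COL4A1 (0.89) and COL4A2 (0.57) also rose. The microfibril genes FBN1 and FBN2 rose 5.65-fold and 4.98-fold. Fibronectin, FN1, had 0.06 and did not pass. TIMP3, a metalloproteinase inhibitor, fell by 1.56 on the log2 scale. CTGF and TGFB2, both linked to TGF-beta signalling, fell by 0.69 and 0.78 on the log2 scale. The summed fibroblast markers given above were also higher in the treated libraries. COL1A1, already counted among the matrix genes that rose, had means of 15.6 CPM with IL4 and ALOX15 siRNA and 6.59 CPM in untreated cells. COL3A1 (1.81 and 1.93 CPM) and LUM (1.45 and 1.28 CPM) differed little, and DCN and PDGFRB were near 0 in both groups. The part of these markers in the result was not tested.

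**Figure D3:**
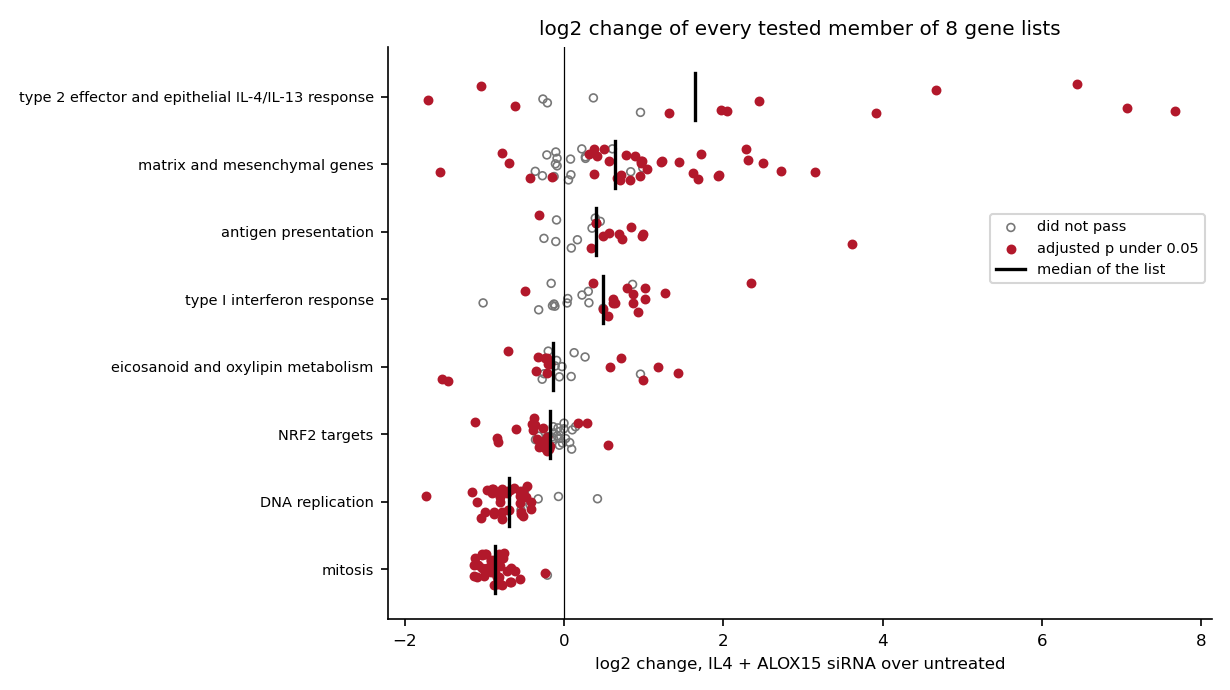
log2 change of every tested member of 8 lists, IL4 with ALOX15 siRNA over untreated. Filled points passed, open points did not, and the bar is the median of the list. Type 2 effector genes spread from -1.71 to 7.67, whereas all 42 mitosis genes lie between -1.13 and -0.21.

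Keratin and junction genes split. Of 37 tested, 12 rose and 7 fell (median 0.10). Among those that rose were the keratins of stressed or layered epithelia KRT16 and KRT6A (log2 3.88, counts not whole in 1 library), P-cadherin, CDH3, and the simple epithelial keratins KRT18 (0.73) and KRT8 (0.64). Others were the keratins KRT80 (1.03), KRT4 (0.93) and KRT19 (0.48), the integrin ITGB4 (1.45), the claudin CLDN2 (0.78) and desmoplakin, DSP (0.75), and the call of KRT19 was lost in 3 of 6 fits that left out 1 library. The tight junction scaffold TJP3 fell 3.92-fold (3.27, 2.04 and 2.71 CPM with IL4 and ALOX15 siRNA, against 13.1, 8.596 and 9.86 CPM in untreated cells), and the adhesion molecule EPCAM fell 2.11-fold (log2 -1.08). E-cadherin, CDH1, had 0.11 and did not pass. In the list of mucin, goblet cell and ion transport genes, 2 of 19 rose and 5 fell (median -0.18). The 2 were the calcium-activated chloride channel ANO1, with 6.94, 8.17 and 9.69 CPM with IL4 and ALOX15 siRNA against 0.627, 0.331 and 0.299 CPM in untreated cells (log2 4.17, SE 0.36), and the sulfate transporter SLC26A2. FOXA1 (-0.74) and FOXA2 (-0.40), transcription factors of airway epithelium, fell together with FOXA3, SPDEF and SLC12A2, the basolateral chloride cotransporter (-0.99).

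About as many interferon response genes rose as did not pass. Of 28 tested type I interferon response genes, 14 rose and 1, OAS1, fell (median log2 change 0.49). The transcription factor IRF1 rose 2.4-fold (24.5, 24.04 and 23.8 CPM with IL4 and ALOX15 siRNA, against 10.3, 9.48 and 10.3 CPM in untreated cells). The antiviral genes MX1 (2.35), TRIM22 (1.02) and IFIT3 (1.02) rose too, from low levels: MX1 had 1.53 ± 0.938 CPM with IL4 and ALOX15 siRNA and 0.266 ± 0.234 CPM in untreated cells (SD, n = 3 each), and its call was lost in 1 of 6 fits that left out 1 library. The sensor IFIT1 had -1.02 and ISG15 had 0.86, and neither passed. Because small RNAs can be recognised as foreign, sensors of double-stranded RNA and the RNA interference machinery were listed. Of 14 sensing genes 6 rose and none fell by edgeR's test (5 and 0 by DESeq2, 7 and 0 by edgeR at an unadjusted p under 0.05, median 0.19), and 3 rose without ALOX15 siRNA replicate 1. The cytosolic sensors IFIH1 (0.86) and DDX58 (0.58) were among the 6, and the call of IFIH1 was lost in 2 of 6 fits that left out 1 library. The medians of the sensing genes were 0.14 with IL4 and control siRNA and 0.14 with IL4 alone, each against the same untreated libraries. Of 14 RNA interference genes only DGCR8 rose (0.28), and that call was lost in 4 of 6 fits that left out 1 library.

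Antigen presentation and complement genes rose more often than they fell. Of 20 antigen presentation genes, 11 rose and 1 fell (median 0.40), and the 1 that fell, HLA-DMB, did not pass in any of the 6 fits that left out 1 library. They included the immunoproteasome subunit PSMB8 (0.84), the peptide transporter TAP1 (0.69), B2M (0.73) and the ubiquitin-like modifier UBD, with 2.04, 3.30 and 2.20 CPM with IL4 and ALOX15 siRNA against 0, 0.220 and 0.448 CPM in untreated cells (log2 3.62). HLA-B (0.39) and HLA-C (0.09), which share reads readily, did not pass. Of 14 complement genes 7 rose and 2 fell (median 0.24), and 1 fell without ALOX15 siRNA replicate 3 or untreated replicate 2. C3, the central component, had 334, 336.5 and 320.4 CPM with IL4 and ALOX15 siRNA, against 70.7, 75.3 and 74.0 CPM in untreated cells (log2 2.17, SE 0.07), and CD59, which blocks the membrane attack complex, rose 3.25-fold. In the list for NF-kB and acute inflammation, 8 of 22 rose and 3 fell (median 0.05). The cytokine gene IL11 had 67.1, 67.2 and 72.5 CPM with IL4 and ALOX15 siRNA, 48.6, 54.1 and 44.1 CPM with IL4 and control siRNA, and 4.39, 5.95 and 5.83 CPM in untreated cells, and rose 13-fold against untreated cells (log2 3.70, SE 0.13). The non-canonical subunit genes NFKB2 (1.14) and RELB (0.88) rose, while the neutrophil attractant CXCL8 (-0.61) and the inhibitor NFKBIA (-0.41) fell.

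The cell division programme was lower with IL4 and ALOX15 siRNA. Of 42 tested mitosis genes, 41 fell and none rose by edgeR's test (39 and 0 by DESeq2, and 42 and 0 by edgeR at an unadjusted p under 0.05), with a median log2 change of -0.87 and a range of -1.13 to -0.21. CDK1, the kinase that drives mitotic entry, had 31.0, 26.1 and 28.05 CPM with IL4 and ALOX15 siRNA, against 68.1, 57.5 and 60.5 CPM in untreated cells, and fell 2.19-fold (log2 -1.13, SE 0.11, adjusted p = 8.6e-08). BUB1B, a spindle checkpoint kinase, had 15.2, 15.4 and 13.6 CPM with IL4 and ALOX15 siRNA, against 30.4, 33.1 and 32.9 CPM in untreated cells (log2 -1.12). ESPL1, which encodes separase, had 9.12, 7.85 and 7.76 CPM with IL4 and ALOX15 siRNA, against 20.3, 16.8 and 15.5 CPM in untreated cells (log2 -1.10). The proliferation marker MKI67 had a log2 change of -0.88, cyclin B1, CCNB1, of -0.77, and the regulator FOXM1 of -0.88. CDC25B, at -0.21, was the 1 gene that did not pass. Of 42 DNA replication genes, 36 fell and none rose by edgeR's test (34 and 0 by DESeq2, and 39 and 1 by edgeR at an unadjusted p under 0.05), with a median of -0.70. Those that fell included the transcription factor E2F2 (-1.74), the helicase subunit GINS2 (-1.16) and the sliding clamp PCNA (-0.88). Cyclin E1, CCNE1, had 0.42 and did not pass. None of either list passed edgeR's test against a 2-fold change, where 2 mitosis genes and 1 replication gene had an unadjusted p under 0.05.

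The mitotic list had a lower median with ALOX15 siRNA (-0.87) than with control siRNA (-0.68) or IL4 alone (-0.62), each set against the same 3 untreated libraries. In the direct comparison of ALOX15 siRNA with control siRNA, 38 of 42 mitosis genes were below 0 with a median of -0.17. Over all genes tested, 6385 of 12795 were below 0 with a median of 0.00046. No mitosis gene passed edgeR's test for that difference, nor DESeq2. At an unadjusted p under 0.05, 11 were lower by edgeR and 8 by DESeq2. DNA replication genes had medians of -0.70 with ALOX15 siRNA, -0.57 with control siRNA and -0.40 with IL4 alone, and none passed in the direct comparison by either tool, with 2 lower by edgeR and 1 by DESeq2 at an unadjusted p under 0.05.

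Promoters of mitotic genes are known to carry the cell cycle genes homology region (CHR), often TTTGAA, with CCAAT boxes upstream. The promoters of 4 genes that fell are shown because they hold the hexamer, in 3 cases within 60 bases before the start. They are RefSeq windows on GRCh38.p14, plus strand, 250 bases before to 50 bases after the gene start. Capitals mark TTTGAA, and CCAAT or its reverse complement ATTGG. They lie at chr10:60778081-60778380 (CDK1), chr15:40160819-40161118 (BUB1B), chr12:53268049-53268348 (ESPL1) and chr16:23678639-23678938 (PLK1, a mitotic kinase at log2 -1.03).
CDK1: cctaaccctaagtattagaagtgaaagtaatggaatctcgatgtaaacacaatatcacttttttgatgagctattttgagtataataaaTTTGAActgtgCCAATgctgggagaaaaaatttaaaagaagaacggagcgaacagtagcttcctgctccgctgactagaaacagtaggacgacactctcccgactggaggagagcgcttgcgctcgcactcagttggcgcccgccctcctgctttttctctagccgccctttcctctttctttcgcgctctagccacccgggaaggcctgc
BUB1B: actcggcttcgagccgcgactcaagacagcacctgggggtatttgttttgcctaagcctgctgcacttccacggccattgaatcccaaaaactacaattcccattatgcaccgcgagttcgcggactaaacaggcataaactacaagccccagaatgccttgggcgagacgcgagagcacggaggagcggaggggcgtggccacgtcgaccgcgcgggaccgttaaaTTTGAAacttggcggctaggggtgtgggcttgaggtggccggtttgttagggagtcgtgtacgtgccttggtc
ESPL1: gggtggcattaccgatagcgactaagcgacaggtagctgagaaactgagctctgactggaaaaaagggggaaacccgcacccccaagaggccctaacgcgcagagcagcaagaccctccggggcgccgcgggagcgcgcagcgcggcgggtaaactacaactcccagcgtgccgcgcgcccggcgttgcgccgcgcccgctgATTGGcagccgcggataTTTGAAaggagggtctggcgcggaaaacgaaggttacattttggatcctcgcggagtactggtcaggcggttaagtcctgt
PLK1: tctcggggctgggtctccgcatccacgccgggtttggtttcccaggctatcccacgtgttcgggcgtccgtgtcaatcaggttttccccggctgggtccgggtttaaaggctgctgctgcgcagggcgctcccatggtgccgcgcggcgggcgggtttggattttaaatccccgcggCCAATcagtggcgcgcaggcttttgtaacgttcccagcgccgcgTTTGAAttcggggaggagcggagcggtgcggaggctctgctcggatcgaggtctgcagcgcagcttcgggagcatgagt
In CDK1 the hexamer lies 161 to 156 bases before the start with CCAAT 150 to 146 bases before it. In PLK1 the hexamer lies 29 to 24 bases before the start and CCAAT 73 to 69. On either strand, TTTGAA was present in 24 of 35 mitosis promoters in the table (68.6%), in 1 of 37 DNA replication promoters (2.7%), in 9.54% of those of all genes tested and in 15.4% of all 27305 promoters in the table. Genes that were lower held it in 16.3% of cases and genes that were higher in 7.62%. Within 60 bases before the start it was found in 14 of 35 mitosis promoters (40%) and in 168 of 10342 of all genes tested (1.62%). CCAAT was present in 77.1% of mitosis promoters and in 36.7% of those of all genes tested. These letters describe the genes of the list, which was not chosen by sequence. They are no measure of which factor acted in these cells.

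**Figure D4:**
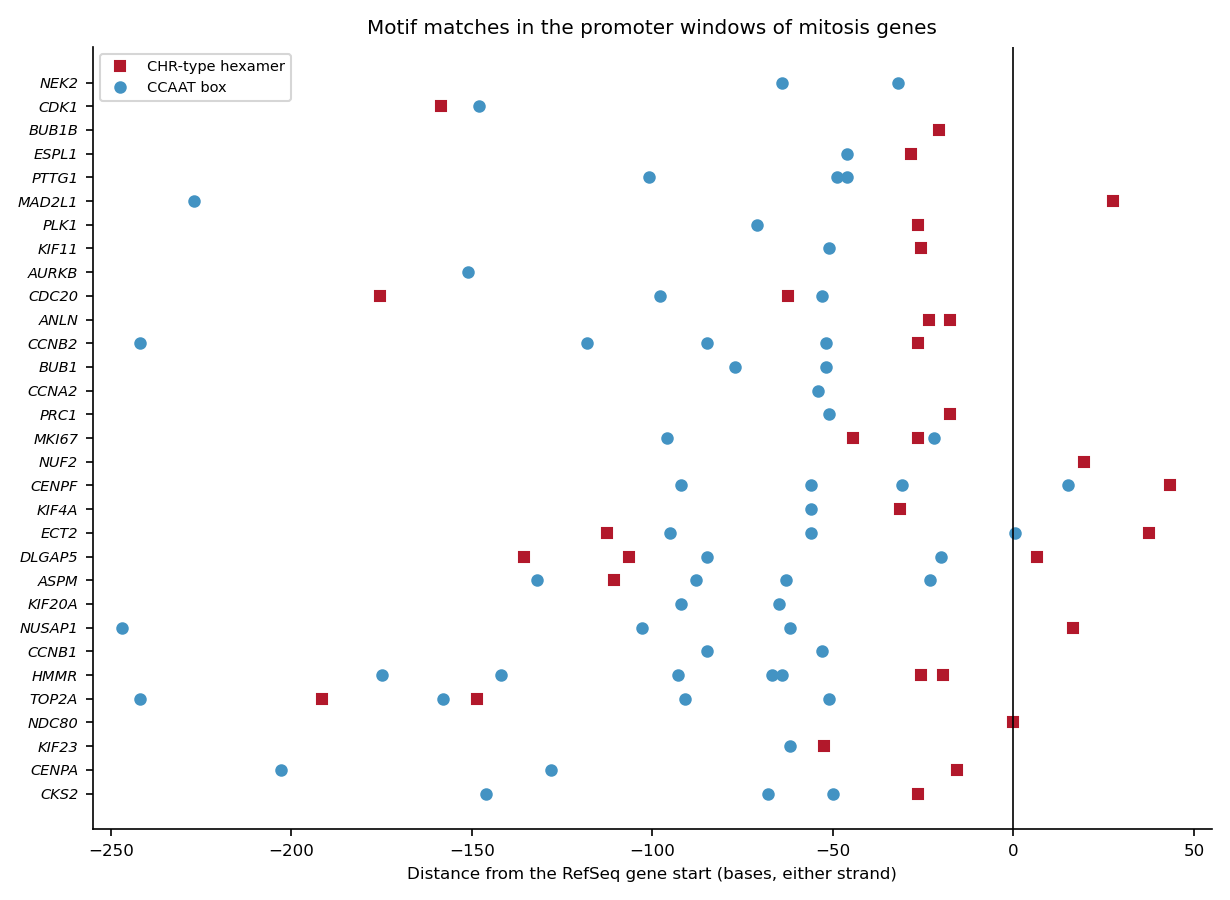
Position of TTTGAA (squares) and CCAAT (circles), on either strand, in the RefSeq promoter windows of mitosis genes that hold a match, in bases from the gene start. Genes are in order of their log2 change, with the lowest at the top. Many squares lie in the 60 bases before the start, and others lie farther upstream or after it. Circles lie mostly upstream of the start, a number of them in the same 60 bases, and in CENPF and ECT2 also at or after it.

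Stress pathways gave mixed counts, which stand beside 12.5% higher and 12.6% lower over all genes tested. Of 41 NRF2 target genes, 3 rose and 18 fell (median -0.17), and 5 rose without IL4 replicate 1. GPX2, a glutathione peroxidase, had 313, 305 and 291 CPM with IL4 and ALOX15 siRNA, against 747, 631 and 601 CPM in untreated cells (log2 -1.12, SE 0.10), and GCLC, the catalytic subunit for glutathione synthesis, fell 1.52-fold. HMOX1, which degrades heme, rose (0.55). In the list of ferroptosis and lipid peroxide handling, 5 of 30 rose (16.7%) and 4 fell (13.3%), with a median of 0.01. These shares were near those over all genes tested. In that list 3 rose without ALOX15 siRNA replicate 1 or 2, 11 rose without IL4 replicate 1, and 2 fell without untreated replicate 2. GPX4, which reduces peroxides of membrane lipids, rose 1.72-fold (119, 124 and 119 CPM with IL4 and ALOX15 siRNA, against 77.3, 63.8 and 68.6 CPM in untreated cells). Of 38 genes of the unfolded protein and integrated stress response, 12 rose and 2 fell (median 0.13), and 1 fell without any 1 ALOX15 siRNA library or untreated replicate 1. The stress transcription factor ATF3 (0.88) and HERPUD1, which acts in protein degradation at the endoplasmic reticulum (0.55), rose. Of 36 hypoxia and glycolysis genes, 9 rose and 5 fell (median 0.03), and 2 or 3 fell in each of the 5 fits without 1 ALOX15 siRNA library or without untreated replicate 2 or 3. The glycolytic regulator PFKFB4 rose 4.29-fold, the oxygen-sensing hydroxylase EGLN3 (log2 1.56) and hexokinase HK1 (1.18) rose too, and the carbonic anhydrase CA9 fell (-1.42). Of 30 p53 targets 8 rose and 2 fell (median -0.02), and 5 rose without ALOX15 siRNA replicate 1 or 3. In that list 6 fell without IL4 replicate 1, and 1 fell without ALOX15 siRNA replicate 2 or 3 or any 1 untreated library. The cell cycle inhibitor CDKN1A rose 1.53-fold, and the stress cytokine GDF15 fell 1.65-fold.

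ALOX15 siRNA was then set directly against control siRNA, both with IL4, which also tests whether the responses against the shared untreated libraries differed. Of 12795 genes, 40 were higher (0.313%) and 49 lower (0.383%), 0.696% in all. These counts rested on the libraries in the fit: 148 were higher and 124 lower without IL4 replicate 1, a library in neither group, and 12 to 20 were higher and 23 to 32 lower when 1 library of either group was left out.

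Besides ALOX15, the most negative differences among the genes named were in genes at low levels. LIPE had 0.136, 0.314 and 0.388 CPM with ALOX15 siRNA, 1.88, 1.39 and 0.856 CPM with control siRNA, and 1.88, 1.87 and 1.64 CPM in untreated cells (log2 -2.23, SE 0.50, adjusted p = 0.04 against control siRNA). Control siRNA and untreated libraries overlapped, and the ALOX15 siRNA libraries lay below both, which the rules for naming it required. The call was kept in only 1 of 6 fits that left out 1 library. SERPINI1, the serine protease inhibitor neuroserpin, had 3.40, 2.98 and 3.23 CPM with ALOX15 siRNA, 7.82, 7.13 and 7.56 CPM with control siRNA, and 11.5, 12.8 and 11.4 CPM in untreated cells. It fell 2.33-fold against control siRNA (log2 -1.22, SE 0.17, adjusted p = 0.00071) and kept its call in all 6 such fits.

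Of the 16 genes named for this comparison, LGR6, SULT2B1, RRAGD and NAV1 had log2 changes of opposite sign against the shared untreated libraries. For RRAGD the change was 0.48 with ALOX15 siRNA, which passed with all libraries but in only 2 of 6 fits that left out 1, and -0.40 with control siRNA, which did not pass. NAV1 had 0.71, which passed, and -0.03, which did not. LGR6, a receptor for R-spondins, had 7.08, 9.58 and 7.24 CPM with ALOX15 siRNA, 18.8, 16.0 and 15.8 CPM with control siRNA, and 12.5, 8.71 and 12.9 CPM in untreated cells. Its log2 change against untreated cells was -0.51 with ALOX15 siRNA, which did not pass, and 0.58 with control siRNA, and the difference was -1.09 (SE 0.19, adjusted p = 0.0055). SULT2B1, which sulfates cholesterol, had 6.94, 6.28 and 4.78 CPM with ALOX15 siRNA, 13.3, 10.2 and 12.6 CPM with control siRNA, and 9.86, 6.502 and 9.41 CPM in untreated cells. Neither of its changes against untreated cells passed (-0.52 with ALOX15 siRNA, 0.49 with control siRNA), while the difference did (-1.01, SE 0.20, adjusted p = 0.016). LGR6 kept its call in 4 and SULT2B1 in 2 of 6 fits that left out 1 library. The Wnt feedback inhibitor NKD1 (-1.05), C9orf152 (-1.27) and the caveolar protein gene SDPR (-0.82) also fell against control siRNA, and kept their calls in 1, 2 and 1 of those 6 fits.

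**Figure D5:**
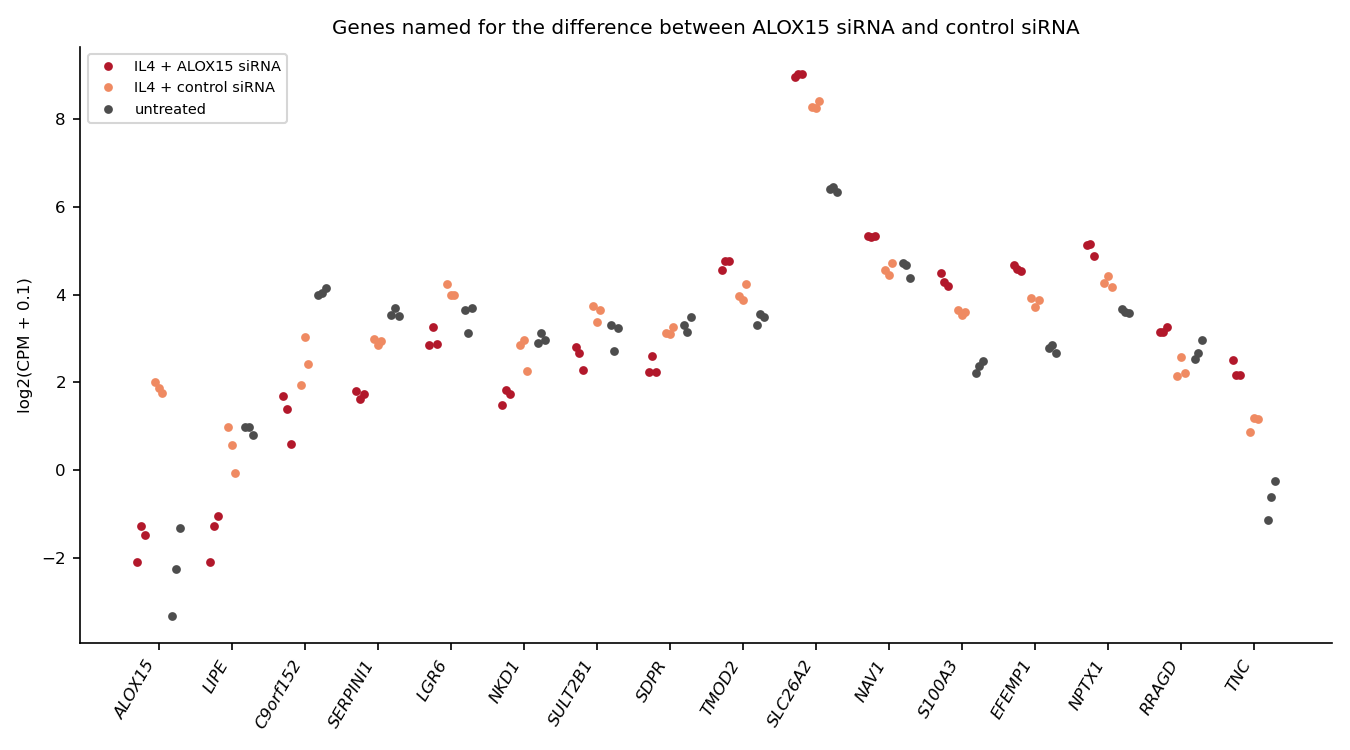
log2(CPM + 0.1) in every library for the 16 genes named for the comparison of ALOX15 siRNA with control siRNA, with untreated libraries beside them. Within each gene the 3 columns of points are IL4 with ALOX15 siRNA, IL4 with control siRNA and untreated. The first 8 genes are lower and the last 8 higher with ALOX15 siRNA than with control siRNA.

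Among the higher genes, several had also risen against untreated cells. SLC26A2 (chr5:149960737-149993455), the sulfate transporter, had 499, 523 and 520.4 CPM with ALOX15 siRNA, 311, 304 and 343 CPM with control siRNA, and 84.5, 87.9 and 81.0 CPM in untreated cells. It rose 1.61-fold against control siRNA (log2 0.69, SE 0.10, adjusted p = 0.0015) and 6.08-fold against untreated cells. The 3 groups did not overlap, which the rule for naming it required of the siRNA groups. NPTX1, the secreted protein neuronal pentraxin-1, had 34.9, 35.8 and 29.3 CPM with ALOX15 siRNA, 19.1, 21.4 and 17.98 CPM with control siRNA, and 12.7, 12.01 and 11.8 CPM in untreated cells (difference 0.77, SE 0.10, adjusted p = 0.00044). NAV1, a microtubule-associated guidance protein, had 40.2, 39.9 and 40.1 CPM with ALOX15 siRNA, 23.7, 21.7 and 26.4 CPM with control siRNA, and 26.3, 25.6 and 20.8 CPM in untreated cells. Its difference was 0.74 (SE 0.12, adjusted p = 0.0036), and control siRNA and untreated libraries overlapped. The extracellular matrix gene EFEMP1 rose 1.68-fold against control siRNA (24.1 ± 1.11 CPM with ALOX15 siRNA, 14.3 ± 1.14 CPM with control siRNA, SD, n = 3 each). SLC26A2, NPTX1, NAV1, EFEMP1, SCD and INSIG1 kept their calls in all 6 fits that left out 1 library.

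Others were less firm. TNC was 2.37-fold higher than with control siRNA (log2 1.25, SE 0.26, adjusted p = 0.026), but its call was lost in all 6 fits that left out 1 library, with adjusted p up to 0.19, and IL4 alone gave 2.73, 3.93 and 3.40 CPM, between the 2 siRNA groups. The lysosomal GTPase gene RRAGD (0.88), S100A3 (0.74), TMOD2 (0.66) and IL11 (0.50) kept their calls in 3, 1, 2 and 2 of those fits.

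Of the genes named from the lists, CFI, PTGS2, PLA2G4A, ALDH3A1 and PDK4 fell against control siRNA. CFI, the complement protease factor I, had 17.4, 19.8 and 12.8 CPM with ALOX15 siRNA, 26.2, 27.4 and 28.8 CPM with control siRNA, and 4.93, 6.17 and 6.43 CPM in untreated cells. It was thus higher than in untreated cells (log2 1.52) but lower than with control siRNA (log2 -0.73, SE 0.13, adjusted p = 0.0051). ALDH3A1, an aldehyde dehydrogenase, had 1309, 1279 and 1219.9 CPM with ALOX15 siRNA, 1798, 1739.8 and 1683 CPM with control siRNA, and 2474, 2208 and 2119 CPM in untreated cells (difference -0.46, adjusted p = 0.0036). PDK4 had a difference of -0.46 and kept its call in 4 of 6 fits that left out 1 library, and the other 4 kept theirs in all 6.

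Of the genes with the highest rises against untreated cells, none of those compared here passed between the siRNAs in the reported fit. For CCL26 the difference was 0.26 (SE 0.10, adjusted p = 0.41), with 112, 104 and 106 CPM with ALOX15 siRNA against 92.1, 95.3 and 81.2 CPM with control siRNA. The groups did not overlap, and CCL26 passed without IL4 replicate 1 in the fit (adjusted p = 0.024) and with only the compared groups in it (adjusted p = 0.018). CISH had a difference of -0.02 (SE 0.18, adjusted p = 0.99), DUOX2 of 0.13 (SE 0.19, adjusted p = 0.92) and ITLN1 of -0.22 (SE 0.25, adjusted p = 0.88). KRT16 had a difference of 0.88 (SE 0.23, adjusted p = 0.088) and SLC26A4-AS1 of -0.54 (SE 0.24, adjusted p = 0.51). For KRT16 and for SLC26A4-AS1 the siRNA groups did not overlap. A p that misses the threshold does not show that the levels were alike.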

How the data were processed

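Expected counts, RSEM's estimates of reads per gene without scaling, were read from the authors' deposited table of 26475 genes (7860 without counts). Bowtie2 2.1.0 and RSEM 1.2.15 on hg38 are named in the submitters' processing notes. Annotation, read filters and strand setting are not given in the sources used here.

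After rounding, filterByExpr left 12795 genes with at least 99.87% of each library's counts. All 15 libraries, totalling 6407936 to 11031246 counts with 0.683% to 2.52% from ribosomal RNA genes, entered 1 TMM-scaled edgeR 4.0.16 model (robust quasi-likelihood test, R 4.3.3) with Benjamini-Hochberg adjustment over all genes tested. The SE is the log2 change over the root of F, and CPM are of rounded, TMM-scaled counts. The fit was tested on simulated data. No pair of replicates was as alike as counting noise allows (chi-square per degree of freedom 1.60 to 13.5).

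Genes named were the 12 highest and 12 lowest against untreated that passed, reached 1 CPM and did not overlap, 8 each way against control siRNA, up to 4 per list and 13 fixed genes. Other list members are examples, picked after their values were seen. Results for some genes are not reported here. Members and lists (22 of pathways, 6 of markers) were chosen with earlier results of these data known. Coordinates come from GENCODE on GRCh38 and promoters from RefSeq, by symbol. Other settings were RLE and upper-quartile scaling, other filters, unrounded counts, DESeq2 1.42.0, only the compared groups, a replicate block, a 2-fold threshold, libraries left out, and removal of GC trends.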

Additional observations from a re-analysis of the deposited data

Results flagged for a closer look

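The responses to IL4 under ALOX15 siRNA and under control siRNA, each set against the same untreated libraries, differed for 24 of the genes named, by edgeR's test of the difference itself. Of these, 8 each way were named because they passed this test, so the count follows in part from the rule for naming. Over all genes tested, 89 of 12795 passed it (0.696%). The log2 difference, ALOX15 siRNA minus control siRNA, was -3.85 for ALOX15, -2.23 for LIPE, -1.27 for C9orf152, -1.22 for SERPINI1, -1.09 for LGR6, -1.05 for NKD1 and -1.01 for SULT2B1. It was -0.82 for SDPR, -0.73 for CFI, -0.53 for PTGS2, -0.52 for PLA2G4A, -0.46 for PDK4 and -0.46 for ALDH3A1. On the positive side it was 0.50 for IL11, 0.50 for SCD, 0.55 for INSIG1, 0.66 for TMOD2, 0.69 for SLC26A2, 0.74 for NAV1 and 0.74 for S100A3. It was 0.75 for EFEMP1, 0.77 for NPTX1, 0.88 for RRAGD and 1.25 for TNC. Of these genes, 12 kept their calls in all 6 fits that left out 1 library of the compared groups.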

How the results depend on the processing

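No log2 change of a named gene against untreated cells changed sign in the settings tried (123 genes checked). For 77 of them, whether the gene passed changed in at least 1 setting, the 2-fold test included. Against control siRNA only 25 named genes were checked, and none of these changed sign. As 24 of them had passed that comparison, a change of sign was unlikely from the start. Whether the gene passed changed in at least 1 setting for 24 of the 25. Against untreated cells the higher and lower counts were nearly equal (1605 and 1608), and which was larger depended on the setting: RLE scaling gave 1704 higher and 1487 lower, upper-quartile scaling 1615 and 1551. The list medians closest to 0 changed sign when 1 library was left out: p53 targets (0.03 without ALOX15 siRNA replicate 2), NF-kB and acute inflammation (-0.03 without untreated replicate 1), ferroptosis (-0.02 without ALOX15 siRNA replicate 3) and RNA interference (-0.01 without ALOX15 siRNA replicate 3, and also with the GC trend removed). In a test against a 2-fold change 122 genes were higher and 27 lower, and with 1 library of either group left out 1316 to 1484 were higher and 1090 to 1263 lower. The other settings stayed within 1.5 times of the counts reported, with between 1527 and 2028 higher and between 1316 and 2410 lower (DESeq2 1527 and 1316, without IL4 replicate 1 2028 and 2151). A setting added after the data were seen, subtraction of a loess trend of log2 CPM on GC content in every library (GC known for 95.15% of genes), gave 1981 higher and 2410 lower. Against control siRNA the counts moved more: 172 higher and 153 lower with only the compared groups in the fit, 148 and 124 without IL4 replicate 1, 145 and 142 with the GC trend removed, 63 and 56 with DESeq2, and 12 to 20 higher and 23 to 32 lower with 1 library left out. In the 2-fold test of edgeR, 0 were higher and 1 lower, 6 having an unadjusted p under 0.05. With the replicate number as a block, 65 were higher and 63 lower against control siRNA, and 1737 and 1751 against untreated cells. Same-numbered deviations correlated at 0.023 to 0.0454 (untreated) and -0.00437 to 0.106 (control siRNA). Differently numbered ones correlated at -0.0503 to 0.00514 (untreated) and -0.117 to 0.101 (control siRNA). These small values do not settle whether the numbers pair the libraries. In the lists, the 2-fold test left 10 of the risen matrix genes and none of the fallen mitosis genes by edgeR. At these depths, genes under about 1 CPM rest on a few counts per library, which widens their intervals.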

Other observations

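Feedback genes and regulators of Wnt signalling were looked at after the values of NKD1, DACT2 and LGR6 had been seen, and were chosen for that reason. AXIN2, a negative regulator of beta-catenin, stood at 2.93 ± 0.952 CPM with IL4 and ALOX15 siRNA and at 10.7 ± 2.45 CPM in untreated cells (SD, n = 3 each), a log2 change of -1.86. DKK1, a secreted Wnt inhibitor, fell by 1.18 on the log2 scale against untreated cells and by 0.48 against control siRNA (edgeR adjusted p = 0.0064). RNF43 (-1.17) and ZNRF3 (-0.80), ubiquitin ligases that remove Wnt receptors, fell against untreated cells. NKD2 (0.55) and the transcription factor TCF7 (0.18) did not pass. TBX3, a T-box transcription factor, changed by -0.61 against untreated cells and by -0.53 against control siRNA (adjusted p = 0.0035), with -0.07 for control siRNA against the same untreated libraries.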
